A study of Mus musculus with 2 samples.

Results

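The genes described here make up the oxygen-sensing pathway around the hypoxia-inducible factors, HIFs: the factor genes Epas1, Hif1a and Arnt, the oxygen sensor genes Egln1 and Egln3, the sensor partner Vhl, and the target genes Adm, Vegfa, Pdk1 and Bnip3. They were picked by gene symbol, and the 10 symbols were selected on signals of these same 2 cells, already known, so the values are descriptions and carry no test. On the array they were read by 26 probe sets, out of 45101 probe sets and 18194 genes with a probe set of 1 symbol. Expression was measured in 2 single cells of CD1 mice, an albino outbred strain, with 1 cell per age and 1 Affymetrix 430 2.0 array per cell. The E12.5 cell came from a dissociated embryonic day 12.5 retina and the P0 cell from a dissociated retina on postnatal day 0, and neither had received any treatment named in the labels. Both were labelled ciliary body, the tissue at the rim of the eye cup that later secretes aqueous humour, a label that the submitters derived from expression after the cells had been collected. With 1 cell per age there was no replicate check, so every difference is one between these 2 cells, and the number of arrays limits the precision.

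HIFs are pairs of an oxygen-regulated alpha subunit, such as those encoded by Hif1a and Epas1 (also called HIF-2 alpha), and a stable partner encoded by Arnt. When oxygen is present, prolyl hydroxylases of the Egln family modify the alpha subunit, and the product of Vhl then recruits a ubiquitin ligase that sends it for destruction. When oxygen is scarce the alpha subunit survives, pairs with Arnt and switches on genes for angiogenesis, glycolysis and mitochondrial adjustment. Much of this control acts on the protein, so an mRNA signal does not report HIF activity. In the developing eye the pathway is known for driving the growth of retinal vessels.

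HIF pairs bind a short core, ACGTG or its variant with G in the first place, which is why the stretch before the start of some of these genes is printed here. RefSeq starts (build GRCm38.p6) were found for 9 of the 10 genes, with 11 starts in all. The window ran from 250 to 11 bases before each start, 240 bases long, and both strands were searched for either core; the core with A first overlaps its own match on the other strand wherever it stands in a palindrome. A match was present before 8 of the 11 starts and in 8 of the 9 genes. Vegfa counts among these genes only through its second start, at chr17:46025163 on the minus strand. That start is downstream of the gene's first start at 46032377, so its window lies within the gene. The only Hif1a start found, at chr12:73907867 on the plus strand, is likewise downstream of the RefSeq gene start at 73901324. Its window, with 3 matches, therefore also lies within the gene. Of all 27025 genes with a start, 10885 held a match before at least 1 start, as did 7518 of the 14453 measured on the array. Among all 32851 starts of that table, 37.4% held a match, and 47.4% of the 18110 starts of genes measured on the array did, so a match is common and marks neither a bound site nor a response. The sequences of Adm and Pdk1, the targets seen in the P0 cell, are shown with those of Egln1, a sensor seen in the E12.5 cell, and of Egln3 and Bnip3, 2 known HIF targets seen in neither. All run 5′ to 3′ on the gene's strand, with capitals marking the matches to either core on either strand. They lie at chr7:110627407-110627646 (plus strand, Adm), chr2:71872974-71873213 (plus strand, the first of 2 starts of Pdk1), chr8:124949265-124949504 (minus strand, Egln1), chr12:54203885-54204124 (minus strand, Egln3) and chr7:138909517-138909756 (minus strand, Bnip3).
Adm: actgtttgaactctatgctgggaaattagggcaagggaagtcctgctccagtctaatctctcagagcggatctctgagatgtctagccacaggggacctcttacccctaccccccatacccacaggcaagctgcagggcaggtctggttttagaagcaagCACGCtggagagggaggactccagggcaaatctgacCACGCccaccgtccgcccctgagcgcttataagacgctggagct
Pdk1: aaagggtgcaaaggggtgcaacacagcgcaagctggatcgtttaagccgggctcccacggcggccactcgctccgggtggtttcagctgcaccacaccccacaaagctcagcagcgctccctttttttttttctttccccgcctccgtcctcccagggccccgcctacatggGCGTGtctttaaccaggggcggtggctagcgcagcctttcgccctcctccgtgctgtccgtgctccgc
Egln1: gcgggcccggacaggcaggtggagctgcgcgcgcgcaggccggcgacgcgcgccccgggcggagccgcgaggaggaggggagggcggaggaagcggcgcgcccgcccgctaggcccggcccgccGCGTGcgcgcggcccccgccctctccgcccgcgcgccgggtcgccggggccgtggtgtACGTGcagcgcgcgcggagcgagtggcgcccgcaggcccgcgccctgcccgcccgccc
Egln3: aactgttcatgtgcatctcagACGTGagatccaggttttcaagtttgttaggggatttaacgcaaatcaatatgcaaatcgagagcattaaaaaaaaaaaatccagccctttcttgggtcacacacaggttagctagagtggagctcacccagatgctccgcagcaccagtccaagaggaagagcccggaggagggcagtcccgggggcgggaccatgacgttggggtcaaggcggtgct
Bnip3: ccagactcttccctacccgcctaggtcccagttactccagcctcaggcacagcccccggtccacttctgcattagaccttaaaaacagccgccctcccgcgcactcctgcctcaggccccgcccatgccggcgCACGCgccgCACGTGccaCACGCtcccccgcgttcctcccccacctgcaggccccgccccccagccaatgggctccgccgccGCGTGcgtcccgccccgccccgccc

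Bnip3 had 5 matches, the most of the 11 windows, 2 of them the overlapping strands of 1 palindrome, while its signals were far below background in both cells. Adm had 2 matches on the opposite strand, whose 5 bases began 90 and 54 bases before the start. Pdk1 had 1, beginning 78 bases before its first start, and none before its second. The windows of Vhl and of the first Vegfa start held no match, which says only that these letters are missing from those 240 bases. Matches thus stood before genes detected at P0, at E12.5 and in neither cell, as the signals that follow show.

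**Figure D1:**
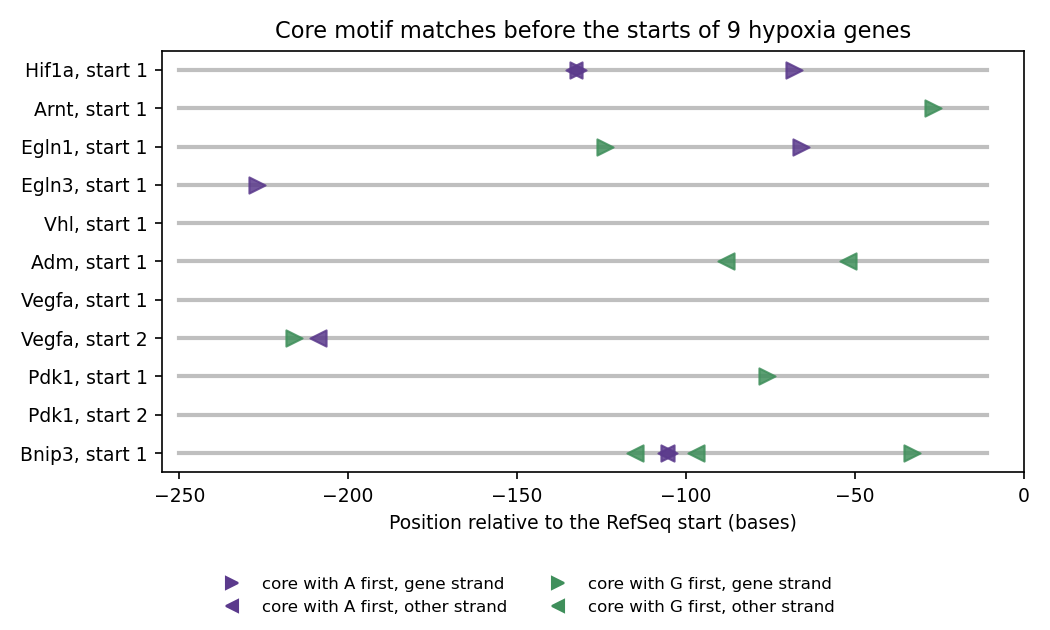
Positions of the HIF core motif in the window from 250 to 11 bases before the 11 RefSeq starts of 9 hypoxia genes. The x axis gives bases relative to the start, arrowheads point along the strand that holds the match, colour tells the core with A first from the core with G first, and overlapping arrowheads mark a palindrome. Bnip3 carries 5 matches and Vhl none.

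The values are MAS5 signals, intensities in arbitrary units on a linear scale. A background limit was set for each array at the 99th percentile of 178 probe sets for genes without a known role in the eye, which came to 256 at E12.5 and 349 at P0. A signal under the limit was not detected, and because amplification from 1 cell can lose a transcript, it cannot be read as absence. Undetected refers to these limits throughout, and some undetected genes passed the lower limits of the alternatives. A gene counted as called higher in a cell if it passed the limit there and was 4-fold or more above the other cell, after signals under a limit had been raised to it; a fold against such a limit is a lower bound. Values written as at E12.5 or at P0 are those of these single cells. Where a gene had several probe sets, the one with the highest mean log2 signal stood for it, and every probe set of the 10 genes is given.

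At these limits the 10 genes were split between the cells: none was above the limit in both, as 3395 of all genes were. The split ended under lower limits, with Vhl above it in both cells at the 95th percentile, and Vhl and Adm with the limit from bacterial controls. Epas1, Adm and Pdk1 were above it in the P0 cell alone, and Hif1a, Arnt, Egln1 and Vhl in the E12.5 cell alone. Egln3, Vegfa and Bnip3 were below it in both. Of all genes measured, 30.3% were above the limit at E12.5 and 28.4% at P0. The call of 4-fold or more was met by 3 of the 10 genes on the P0 side and 3 on the E12.5 side, where it was met by 9.25% and 7.3% of all genes. Because the genes were picked with these signals in view, the counts describe the choice as well as the cells. Of their 26 probe sets, 7 were above the limit at E12.5, 5 at P0 and 0 in both. The other 14 lay below it throughout, with signals from 2.56 to 105 at E12.5 and from 2.68 to 201 at P0.

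**Figure D2:**
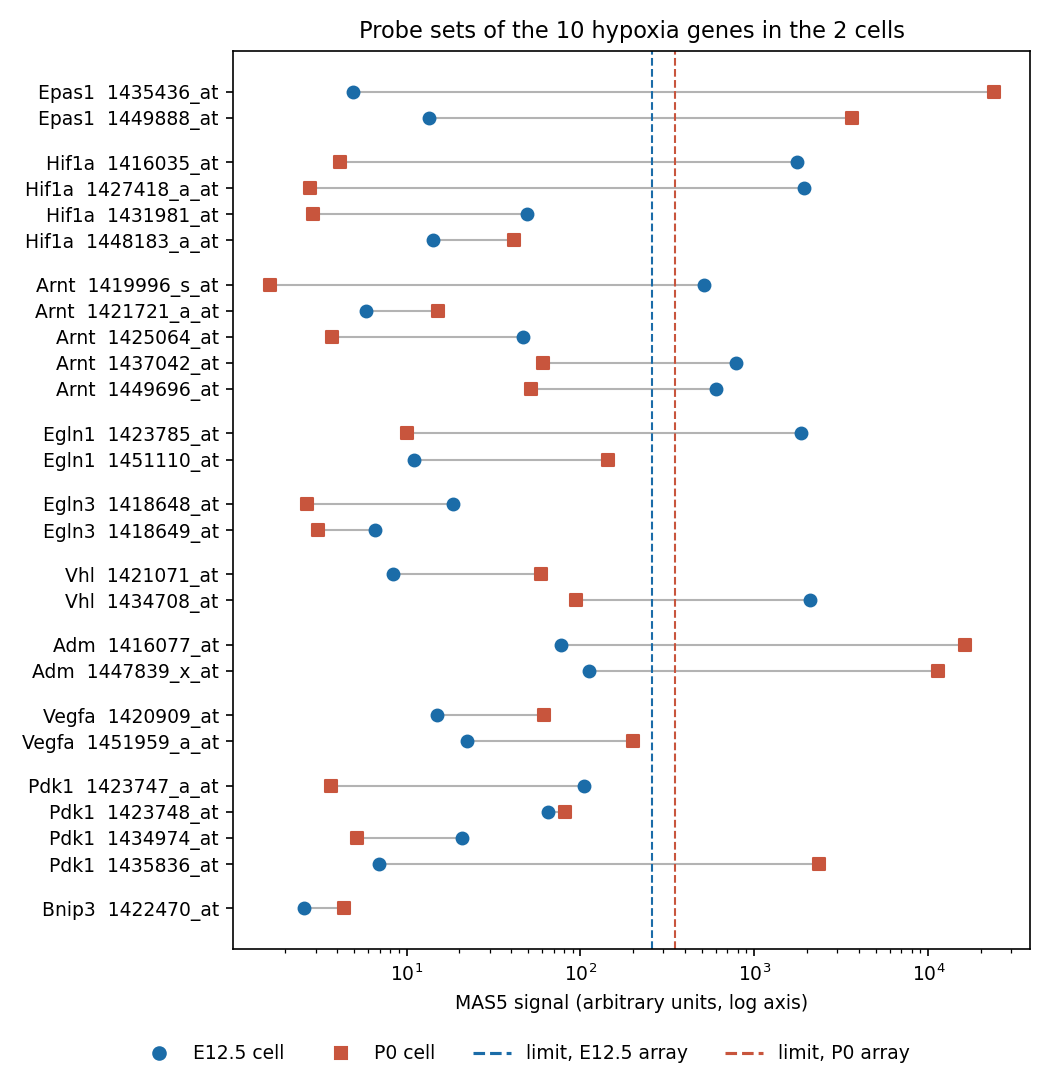
MAS5 signals of the 26 probe sets of the 10 hypoxia genes on a log axis, with a circle for the E12.5 cell, a square for the P0 cell and a dashed line at each array's background limit (256 and 349). Both probe sets of Epas1 and of Adm reach past the limit at P0 only, and no probe set passes it in both cells.

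Among the factors, Epas1 was the alpha subunit gene detected at P0. Probe set 1435436_at read 4.95 at E12.5 and 23691 at P0, and probe set 1449888_at read 13.5 and 3642. Both were high at P0 and undetected at E12.5, with lower bounds of 92.4-fold and 14.2-fold. Hif1a, the more widely expressed alpha subunit gene, was the reverse. Its probe set 1416035_at read 1749 at E12.5 and 4.15 at P0, and 1427418_a_at read 1919 and 2.79. These 2 were detected at E12.5 only, with lower bounds of 5.02-fold and 5.51-fold. The remaining Hif1a probe sets were below the limit in both cells, at 49.5 and 2.89 for 1431981_at and at 14.2 and 41.7 for 1448183_a_at, the latter with the higher signal at P0.

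Arnt, the shared partner subunit, was detected at E12.5 by 3 of its 5 probe sets. They read 785 at E12.5 and 60.6 at P0 (1437042_at), 599 and 52.3 (1449696_at), and 514 and 1.63 (1419996_s_at). All 3 stood above the limit at E12.5 and below it at P0, but the bounds, at least 2.25-fold, 1.72-fold and 1.48-fold, did not reach the 4-fold call. With the limit at the 95th percentile the log2 ratio of Arnt, P0 over E12.5, was -3.13 in place of -1.17 and met the call, so its size rests on the limit. The other 2 Arnt probe sets were undetected, at 46.6 and 3.73 (1425064_at) and at 5.85 and 15.2 (1421721_a_at). Arnt2, a close relative of Arnt enriched in neural tissue, was detected in both cells at nearly the same signal, 5303 at E12.5 and 5361 at P0. Its 2 further probe sets were below both limits. Hif3a, the third alpha subunit gene, read 417 at E12.5 and 104 at P0, and a second probe set read 265 and 60.8, both past the E12.5 limit only.

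The sensors seen at E12.5 each rested on a single probe set. Egln1 encodes the prolyl hydroxylase PHD2, the main oxygen sensor for HIFs in most cells. Its probe set 1423785_at read 1847 at E12.5 and 10.0 at P0, at least 5.30-fold higher in the former. The second, 1451110_at, read 11.1 and 143, below both limits and with the higher signal at P0. Egln3, encoding PHD3, which is itself a HIF target in many cells, read 18.6 and 2.68 with one probe set and 6.63 and 3.11 with the other, in the E12.5 and P0 cells respectively. It was undetected in both cells. Vhl, the substrate adaptor of the ubiquitin ligase, read 2083 at E12.5 and 94.2 at P0 with 1434708_at, at least 5.98-fold higher at E12.5. Its other probe set, 1421071_at, read 8.34 and 59.3, under both limits.

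Egln2, the family member that encodes PHD1, was detected at P0, where Egln1 was not. It read 183 at E12.5 and 5609 at P0, at least 21.9-fold higher, from the only probe set it had. At the limits used, each cell therefore had 1 detected transcript of this family. Egln2 at E12.5 passed the lower limits at the 95th percentile (111.7) and from bacterial controls (111.1). The second Egln1 probe set, at 143 in the P0 cell, passed those of that array (89.96 and 93.9). The core of the ligase that works with Vhl was read in both cells: the scaffold gene Cul2 at 2759 at E12.5 and 1659 at P0, Elob at 10241 and 5016, and Eloc at 3518 and 3644. These differed by less than 2.1-fold between the cells, although 1 of the 3 further Eloc probe sets read 9.12 and 1031. The ring subunit gene Rbx1 was undetected in both, as was Hif1an, whose product hydroxylates an asparagine of the alpha subunit and blocks its coactivators.

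Among the targets, Adm and Pdk1 were detected at P0. Adm encodes adrenomedullin, a secreted peptide that dilates vessels. Its probe set 1416077_at read 77.1 at E12.5 and 16183 at P0, and 1447839_x_at read 112 and 11304. Both were detected at P0 only, with lower bounds of 63.1-fold and 44.1-fold. Pdk1 encodes a pyruvate dehydrogenase kinase, which restrains entry of pyruvate into the citrate cycle. Its probe set 1435836_at read 6.96 at E12.5 and 2348 at P0, at least 9.16-fold higher at P0. The other 3 Pdk1 probe sets were below both limits, at 105 and 3.69 (1423747_a_at), 65.4 and 81.3 (1423748_at), and 20.8 and 5.18 (1434974_at). The P0 call for Pdk1 was therefore made by 1 of 4 probe sets.

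Vegfa, which encodes the main growth factor for vessels, was not detected in either cell. It read 22.2 at E12.5 and 201 at P0 with 1451959_a_at, and 15.1 and 61.5 with 1420909_at. The larger of the P0 signals was under the P0 limit of 349. It passed the lower P0 limits of 3 alternatives: 89.96 at the 95th percentile, 93.9 from bacterial controls, and 131.5 with background probe sets ending in _x_at or _s_at left out. Bnip3, a mitochondrial outer membrane protein gene of mitophagy, was read by 1 probe set, at 2.56 at E12.5 and 4.38 at P0. Of the 4 targets, 2 were detected at P0 and 0 at E12.5, against 28.4% and 30.3% of all genes. Because undetected cannot be read as absent, whether the 4 share a pattern could not be told.

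Agreement between probe sets varied among the genes and set how firmly each could be read. Epas1 and Adm were called by each of their probe sets. Of the 1142 genes called higher at P0 that had several probe sets, 11.6% were called by all of them. That share includes genes with more than the 2 probe sets that Epas1 and Adm each had. Both genes were also selected on these signals, so the share does not measure how unusual their agreement was. Egln1, Vhl, Hif1a and Pdk1 each had a probe set below both limits. The looser case, a probe set undetected in a cell where another of the gene was detected, was common. It held for 78.4% of the genes with several probe sets and at least 1 detected at E12.5, and for 79.2% at P0. Across probe sets of the same gene detected in both cells, log2 ratios had an SD of 0.83 (976 genes), which holds array error but no variation between cells. When the mean log2 signal over all probe sets stood for a gene, Hif1a, Arnt, Egln1, Vhl and Pdk1 were below the limit in both cells, and only Epas1 and Adm remained called, both on the P0 side. A bound also depends on how bright the detected signal was. Counting genes with a fold or bound at least as large in the same direction gave 22 genes for Adm, itself included, 798 for Pdk1, 880 for Vhl, 1008 for Egln1, 1075 for Hif1a and 2067 for Arnt.

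**Figure D3:**
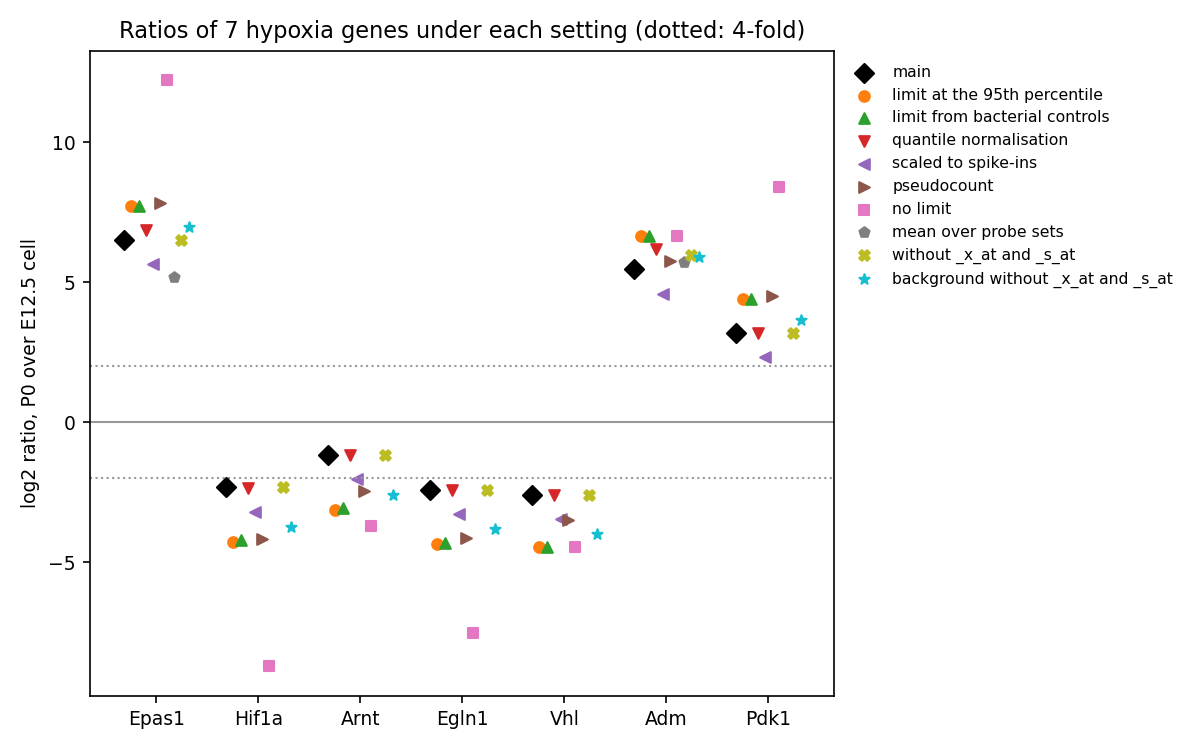
Log2 ratio of the P0 over the E12.5 cell for the 7 hypoxia genes detected in at least 1 cell, with the reported value as a black diamond, each alternative in its own colour and dotted lines at 4-fold. Every gene keeps its side of 0 in each setting that gave it a value. For Hif1a, Arnt, Egln1, Vhl and Pdk1 the mean over probe sets has no point because it was below both limits.

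The wider pathway was read in 6 lists holding 107 further genes, of which 98 had a probe set of 1 symbol. Of these 98, 47 were detected at E12.5, 46 at P0 and 35 in both. The call was met by 11 on the P0 side and 7 on the E12.5 side, shares of the list close to the 9.25% and 7.3% of all genes, so these lists did not stand apart in their calls. The median log2 ratio of the 58 detected in at least 1 cell was 0.19, against 0.02 for all 7276 such genes, with undetected signals at their limit. The direction of calls over all genes depended on the scaling: 55.9% of the calls were on the P0 side, and 33.2% when the arrays were scaled to spike-in controls, which moved the median log2 ratio of genes detected in both cells from 0.00 to -0.86.

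**Figure D4:**
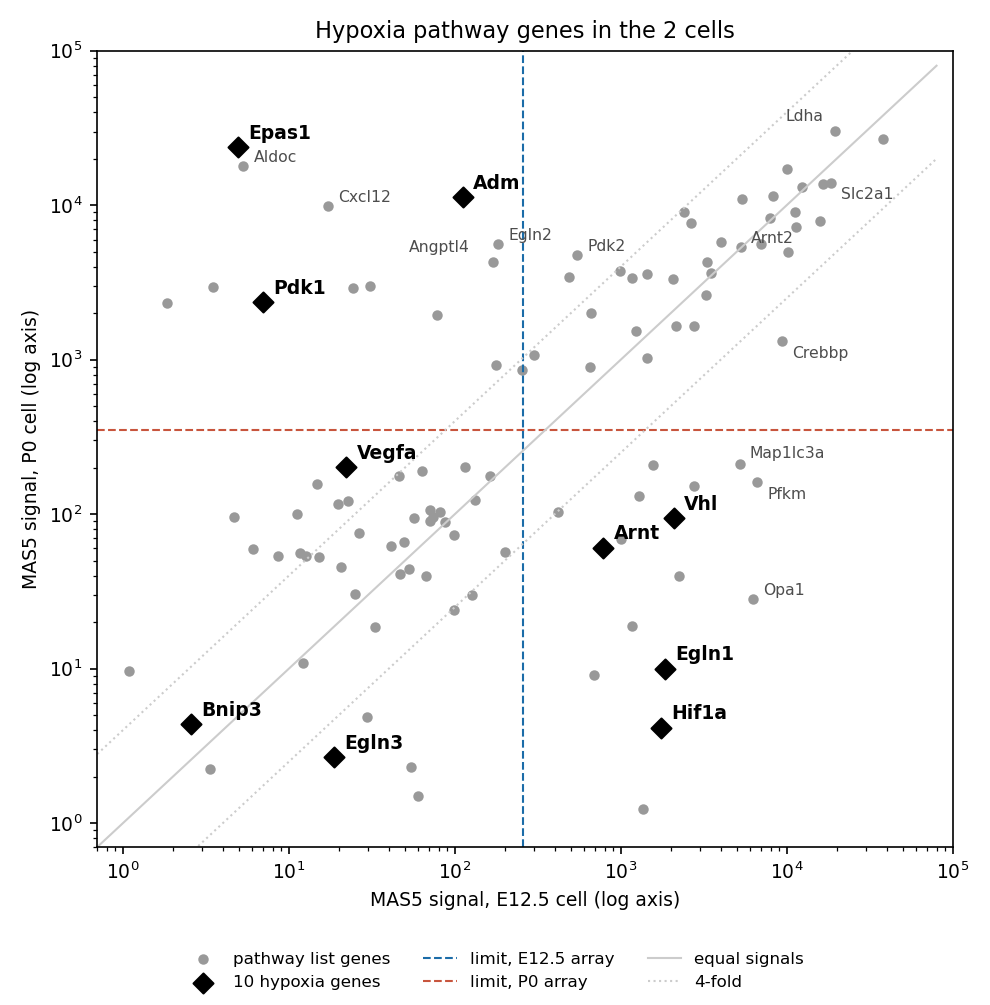
Signals of the 10 hypoxia genes (diamonds) and 98 pathway genes (dots) at E12.5 (x axis) and the P0 cell (y axis), both on log axes, with dashed lines at the background limits (256 and 349) and dotted lines at 4-fold. The diamonds lie in the upper left, lower right and lower left fields, and none lies in the upper right field, which holds 35 of the pathway genes.

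Glycolytic HIF targets were mostly detected in both cells at similar signals. Of 18 measured, 12 were detected in each cell and 10 in both, with a median log2 ratio of -0.29 over the 14 detected in at least 1. Of all 18194 genes, 30.3% were detected at E12.5, 28.4% at P0 and 3395 in both. The call was met by 2 on the P0 side and 2 on the E12.5 side, against 9.25% and 7.3% of all genes. The glucose transporter gene Slc2a1 read 18449 at E12.5 and 13992 at P0. Pgk1, encoding phosphoglycerate kinase, read 12304 and 13046, and Ldha, encoding the lactate dehydrogenase subunit that makes lactate from pyruvate, read 19560 and 30159. These 3 standard HIF targets were bright in both cells and differed by less than 2-fold. The call on the P0 side was met by Aldoc (5.29 and 17987, at least 70.2-fold) and the hexokinase gene Hk1 (31.0 and 3003, at least 11.7-fold). A second Aldoc probe set was called the same way, while the other Hk1 probe set was below both limits (8.52 and 67.1). On the E12.5 side it was met by Pfkm (6668 and 160, at least 19.1-fold), a phosphofructokinase gene, and Pfkfb4 (2762 and 153, at least 7.92-fold), whose product sets the level of a phosphofructokinase activator. Hk2, the hexokinase gene best known as a HIF target, was undetected in both at 4.65 and 96.1. Pfkfb3 was counted as undetected, but a probe set that did not stand for it read 326 at E12.5 and 8.04 at P0, past the E12.5 limit.

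Of 27 other HIF targets measured, 10 were detected at E12.5, 12 at P0 and 8 in both. The call was met by 4 on the P0 side and 1 on the E12.5 side, where it was met by 9.25% and 7.3% of all genes. With spike-in scaling 3 and 1 met it, against 5.78% and 11.6% of all genes, and counts of this size set nothing apart. The median log2 ratio of the 14 detected in at least 1 cell was 1.84. It was 0.98 with spike-in scaling, 0.56 with the limit at the 95th percentile and 0.45 with the mean over probe sets, each over the genes detected there. Angptl4, a secreted lipase inhibitor gene, read 169 at E12.5 and 4267 at P0, at least 16.6-fold higher. Cxcl12, a chemokine gene, read 17.1 and 9841, at least 38.4-fold higher, and a second probe set of it was also called on the P0 side. The collagen lysyl hydroxylase gene Plod1 read 1.85 and 2344, at least 9.14-fold higher, and Fam162a, a mitochondrial protein gene, read 486 and 3422, 7.04-fold higher. Just short of the call were Ero1a (997 and 3762), an oxidase of protein folding, the Myc antagonist gene Mxi1 (2420 and 8982), the lysyl hydroxylase gene Plod2 (299 and 1065) and the prolyl hydroxylase subunit gene P4ha1 (178 and 925), each 3.57-fold to 3.77-fold higher at P0, for P4ha1 as a bound. Nampt, an enzyme gene of NAD synthesis, was at least 4.50-fold higher at E12.5 (1568 and 207), while another of its probe sets read 21.2 and 399, the other way. Car9, Ndrg1, Ankrd37 and Ddit4, widely used hypoxia markers, were undetected in both cells, Car9 at 3.34 and 2.25.

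Of 10 measured partners of Pdk1, 5 were detected at E12.5, 6 at P0 and 4 in both. The call was met by 3 on the P0 side and 0 on the E12.5 side, against 9.25% and 7.3% of all genes, and with spike-in scaling by 3 and 1. Pdk2, a second kinase of the family, read 545 at E12.5 and 4765 at P0, 8.74-fold higher and detected in both. Pdk3 (12.7 and 53.9) and Pdk4 (1.09 and 9.72) were undetected. Of the enzyme complex that these kinases restrain, Pdha1 (5363 and 11039), Pdhb (11424 and 7202) and Dlat (1242 and 1533) were detected in both cells and differed by less than 2.1-fold. Dld, encoding the dihydrolipoamide dehydrogenase (3.47 and 2951), and Pdhx, encoding the binding protein of the complex (24.4 and 2896), were higher at P0, by at least 11.5-fold and 11.3-fold. The phosphatase gene Pdp1, which reverses the kinases, read 1360 and 1.23, with a bound of 3.90-fold on the E12.5 side. The 2 further probe sets of Dlat, detected in both cells, had the higher signal at E12.5, against the one given. Pdha1 had a second detected probe set (68.1 and 1081), and none of the other genes named here had one.

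Receptors for the secreted products of Vegfa and Adm were not detected at the limits used. Of 12 genes, Vegfb, a relative of Vegfa, was the only 1 above a limit, at 1163 at E12.5 and 19.0 at P0. Of all genes, 30.3% were above the limit at E12.5 and 28.4% at P0. The receptor genes Flt1 (11.2 and 101), Kdr (63.9 and 190) and Nrp1 (87.8 and 88.4) for Vegfa were below both limits. Calcrl (49.3 and 65.7) and its partner genes Ramp2 (12.1 and 10.9) and Ramp3 (33.2 and 18.5), which form the adrenomedullin receptors, were too, so that neither cell had a detected receptor transcript for the Adm peptide. At P0, Flt1 passed the lower limits at the 95th percentile (89.96) and from bacterial controls (93.9). Kdr and Ramp1 (178 at P0) passed these and the limit of 131.5 described for Vegfa. Calcrl, Ramp2 and Ramp3 passed none of them. A probe set of Nrp2, also on the list, that did not stand for the gene read 90.6 at P0. It passed the limit of 89.96 alone.

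Genes that act with Bnip3 in mitophagy or bind it were broadly detected although Bnip3, read by 1 probe set, was not. Of 12 measured, 11 were detected at E12.5, 8 at P0 and 7 in both. Of all 18194 genes, 30.3% were detected at E12.5, 28.4% at P0 and 3395 in both. The call was met by 1 on the P0 side and 2 on the E12.5 side, against 9.25% and 7.3% of all genes. Gabarapl2, an autophagosome protein gene, read 3273 at E12.5 and 2606 at P0, and Map1lc3b read 2653 and 7693. Map1lc3a was at least 14.9-fold higher at E12.5 (5203 and 212), and a second probe set was called the same way. Bcl2, the survival factor gene whose product binds Bnip3, was at least 7.60-fold higher at P0 (78.3 and 1948). Its 4 other probe sets were below both limits, at most 56.1 at E12.5 and 295 at P0. Opa1, a fusion gene of the inner mitochondrial membrane, met the call on the E12.5 side (6274 and 28.0), but another of its probe sets read 4.73 and 5106, the opposite. Its direction could not be told from these probe sets, although the counts above hold it as detected and called at E12.5 only.

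Of 19 measured regulators of the factors, 3 met the call on either side, a share close to the 16.5% of all genes that did so. Besides Egln2, they were the coactivator gene Crebbp, 7.05-fold higher at E12.5 (9328 and 1324), and Senp1, encoding a protease that removes SUMO from Hif1a protein, at least 6.40-fold higher there (2230 and 40.0). A second Senp1 probe set was detected at E12.5 without reaching the call. The 3 other Crebbp probe sets were below both limits, at most 71.1 at E12.5 and 67.1 at P0. Cited2, a HIF target whose product competes with HIFs for coactivators, read 3305 and 4319 and was detected in both. Ep300, the relative of Crebbp, was undetected at 60.4 and 1.49.

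Markers of other cell types were read beside these genes, since Epas1 is known to be abundant in endothelium, pericytes and astroglia. For comparison with the counts that follow, 30.3% of all genes were detected at E12.5 and 28.4% at P0. The call was met by 9.25% of all genes on the P0 side and 7.3% on the E12.5 side. Of 8 ciliary margin markers, 6 were detected at E12.5 and 5 at P0, and the summed signal was 69033 and 29596, so the list was lower at P0. Wfdc1 (10696 and 414), Cdon (12766 and 1193) and Otx1 (1573 and 48.8) were called on the E12.5 side, by 25.8-fold, 10.7-fold and at least 4.51-fold. Zic1 (19476 and 9865), Zic2 (4640 and 2787) and Col9a1 (19719 and 15215) were detected in both cells within 2-fold, and Msx1 and Mitf in neither. The label was itself made from expression, and the part of this list in the values of the hypoxia genes was not tested. None of 8 endothelial markers, Kdr again included, was detected in either cell, and their summed signal was 344 at E12.5 and 619 at P0, with Pecam1 at 16.4 and 9.07. Lower limits changed this in part. Cdh5 (193) and Kdr (190) at P0 passed the alternative limits of 89.96, 93.9 and 131.5. Tie1 (141) at E12.5 passed those at the 95th percentile (111.7) and from bacterial controls (111.1). Of 6 pericyte markers Rgs5 alone was detected, at P0 (833), with summed signals of 302 and 1027 and Pdgfrb at 44.6 and 38.5. Of 7 astroglial and Müller glial markers, 2 were detected at E12.5 and 5 at P0. The summed signal was 10740 and 33229, of which Rlbp1 alone gave 16125 at P0. The members of this list differed in direction. Within it Rlbp1 (31.1 and 16125), S100b (11.6 and 4787) and Gfap (44.4 and 1073) were called on the P0 side, and Slc1a3 (1922 and 5984) was 3.11-fold higher there without meeting the call. Glul had the higher signal at E12.5 (8569 and 5024), as did its second probe set (1887 and 109), while Aqp4 (98.3 and 70.1) and Aldh1l1 (63.2 and 165) were undetected. The part of this list in the result was not tested. Of 6 mesenchymal markers, Col1a2 (2653) and Pdgfra (3088) were detected at P0 and 0 at E12.5, with summed signals of 398 and 6066, while Col1a1 and Col3a1 were undetected; their part was not tested either. Erythroid (2 measured) and microglial (4) markers were undetected in both.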

How the data were processed

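Single cells picked from papain-dissociated retina were reverse transcribed from oligo dT, and the cDNA was amplified by 35 cycles of PCR, per the labels' protocols. Oligo dT priming favours 3′ ends. The deposited values are signal intensities, made by the authors with MAS5, per the labels and the design text; version and settings: not given in the sources used here. Each array was scaled on its own: the mean without 2% of values at each end was 500.0 in both.

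Of 45101 probe sets, 34958 had 1 symbol in the platform annotation, 932 several and 9211 were not listed; 34754 symbols were updated through RefSeq and 204 kept. Background genes were receptors of smell, taste and the vomeronasal organ, keratin-associated proteins, defensins, protamines, milk caseins, urinary proteins, prolactin relatives and zona pellucida proteins. No test was possible with 1 cell per age. The genes and lists were chosen with earlier results of these data known. The genes named are the 10 and those of the lists past 4-fold; further list genes were picked for naming after their values were seen. Analyses used Python 3.11.15, numpy 2.4.6 and pandas 2.3.3. Alternatives changed the limit, scaling, low values (a pseudocount of 100, or no limit), probe set choice and fold.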

Additional observations from a re-analysis of the deposited data

How the results depend on the processing

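No paired analysis was possible because each age has 1 cell. Over 10 alternatives, Epas1 and Adm kept their P0 call in all 10 and Pdk1 in 9. Hif1a, Egln1 and Vhl kept their E12.5 call in 9. Each of these 9 was lost only with the mean over probe sets. Arnt was called on the E12.5 side in 7, among them the 2-fold setting, where its log2 ratio of -1.17 fell short of 4-fold. That mean left 0 of the 10 genes above the limit and 0 called in the E12.5 cell. It left 3 and 7 of the 98 list genes called on the E12.5 and P0 side, against 3.85% and 4.74% of all genes. Without a limit, 5 of the 10 genes were called on the E12.5 side, and 18 and 22 list genes on the E12.5 and P0 side, where undetected signals make calls. Of all genes, 22.6% and 21.6% were called on these sides without a limit. With a limit from bacterial controls or at the 95th percentile, 5 of the 10 genes were above it in the P0 cell, 2 and 1 of them in both cells respectively, and 13 list genes were called on the E12.5 side. List genes on that side numbered 11 with spike-in scaling and 12 with the pseudocount. They numbered 12 with background probe sets ending in _x_at or _s_at left out, a choice made after seeing the data. Of all genes, 11.6%, 10.4% and 10.4% were called on that side in these settings. At 2-fold, list genes numbered 13 on the E12.5 side and 21 on the P0 side, against 12.5% and 13.6% of all genes. No ratio of the 10 genes changed sign in a setting that gave it a value. Low signal over background limits all bounds.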
